A study of Catharus ustulatus with 19 samples.

Results

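The coastal form (ecotype) of the Swainson's thrush, Catharus ustulatus, was compared between birds in the migratory state and birds in the non-migratory state. The 10 coastal birds of the 19 birds in the series were taken by their labels: 4 migratory coastal birds (3 males and 1 female) and 6 non-migratory coastal birds (4 males and 2 females). All had been kept in captivity for more than a year under constant conditions, with day length adjusted every week to follow the natural one. The tissue was a brain block with the hypothalamus and the optic chiasma, sequenced as 1 RNA library per bird. The 4 migratory coastal birds were collected on 3 and 4 October 2011 and 5 of the 6 non-migratory ones on 7 and 8 August 2011. Non-migratory coastal replicate 6, a female, was collected on 4 October, so month and status differ in 1 coastal bird. How the status of a bird was judged is not given in the sources used here, and the age of the birds is not given in them either.

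Swainson's thrushes are songbirds that migrate at night between North America and the tropics, and captive birds of such species become restless at night when wild ones would be on passage. The hypothalamus reads day length through light-sensitive cells deep in the brain and acts through thyroid hormone on reproduction, and it also controls feeding, fat stores and body temperature. The optic chiasma, where the optic nerves cross, is made mainly of nerve fibres with their myelin and glia. The values therefore come from a mixture of cell types, in which fewer cells of a type and less RNA per cell cannot be told apart. The genes of the table carry identifiers that neither the table nor the reference used here pairs with names. No pathway or cell type marker could thus be looked up, the labelled tissue could not be checked against its defining markers, and genes are given by identifier.

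The table holds a value for each of 11727 genes in each bird, on a log scale that is read here as log2. Columns of all birds had nearly the same distribution, with medians between 28.047 and 28.049 log2, so higher and lower refer to a gene's place among all genes of a bird. The depth of the libraries is unknown. Correlations across genes between 2 coastal birds lay between 0.956 and 0.983, and no 2 birds had the same values. Tissue was taken 2.52 to 8.57 hours after lights on in migratory and 2.5 to 7.55 hours in non-migratory coastal birds, at means of 5.21 ± 3.07 hours (SD, n = 4) and 4.59 ± 1.96 hours (SD, n = 6).

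In the fit of all 19 birds, no gene passed the threshold of an adjusted p of 0.05 between migratory and non-migratory coastal birds, although 1299 genes (11.1% of those tested) had an unadjusted p under 0.05. About 5% would have been expected with no difference in any gene, though genes are not independent. When the model held the 10 coastal birds only, 1 gene passed, ENSFALG00000010663 (limma adjusted p = 0.0039). The leading genes are given as values, since none passed in the fit of all birds. They were chosen for small p-values in the birds described, so their differences are likely overstated and their intervals do not allow for the choice. ENSFALG00000010663 also had the smallest p-value with all birds, and it was lower in migratory birds by more than a factor of 2. ENSFALG00000009064 showed the largest difference among the named genes, and ENSFALG00000001448 and ENSFALG00000014605 led the genes that were higher in migratory birds. Differences are migratory minus non-migratory, adjusted for sex in limma's moderated test fitted to all 19 birds, with p-values adjusted by Benjamini-Hochberg over all genes.

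ENSFALG00000010663 stood at 27.73, 27.86, 27.29 and 27.06 log2 in the migratory coastal birds. The 6 non-migratory coastal birds ranged from 28.23 to 28.95 log2, with a median of 28.80. The groups did not overlap, and the lowest non-migratory value was that of the October bird. The difference was -1.24 ± 0.21 log2 (SE, limma adjusted p = 0.177), or 2.37-fold, and its 95% interval ran between -1.69 and -0.80; the same difference passed the threshold without the inland birds in the model (limma adjusted p = 0.0039). It was nearly the same in males (-1.22 log2) and in females (-1.30 log2, 1 bird against 2), as differences between plain means. The gene was chosen for its small p-value in these same birds, which favours groups without overlap and agreement between the sexes.

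ENSFALG00000009064 stood at 25.49, 25.78, 25.24 and 25.17 log2 in the migratory coastal birds, a range of well under 1 log2. In the non-migratory coastal birds it ranged from 25.83 to 29.96 log2 around a median of 27.31. August males replicate 2 and replicate 4 held the highest values, at 29.96 and 29.30 log2. The other non-migratory coastal birds reached at most 27.34 log2. The SD of the gene was 0.27 log2 in migratory birds (n = 4) and 1.59 log2 in non-migratory birds (n = 6). The groups did not overlap, but the October non-migratory bird, at 25.83 log2, lay next to the migratory birds and below the lowest August bird (26.59). The difference was -2.43 ± 0.48 log2 (SE, limma adjusted p = 0.177). The plain difference was -2.97 log2 in males and -1.04 log2 in females.

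ENSFALG00000001448 stood at 27.99, 27.82, 28.04 and 27.74 log2 in the migratory coastal birds, against 27.36 to 27.51 log2 (median 27.39) in the non-migratory ones. All 4 migratory birds were above all 6 non-migratory birds, and the October non-migratory bird (27.39) lay in the middle of the August ones. Its difference was 0.47 ± 0.09 log2 (SE, 1.38-fold, limma adjusted p = 0.177). In ENSFALG00000014605 the migratory birds had 27.995, 28.125, 27.974 and 28.104 log2 and the non-migratory birds 27.32 to 27.76 log2 (median 27.47), again with no overlap. Its difference was 0.54 ± 0.11 log2 (SE, limma adjusted p = 0.183).

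**Figure D1:**
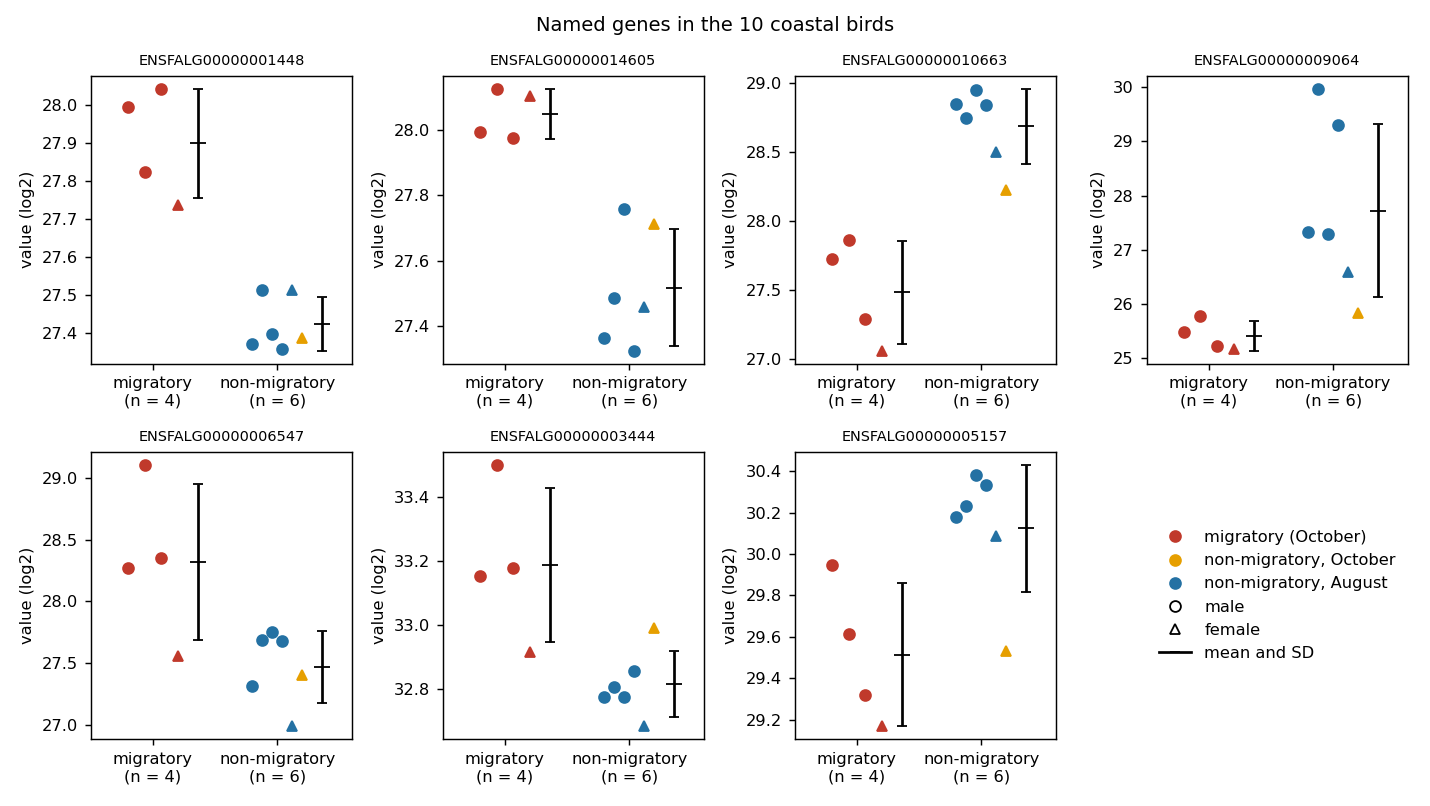
Values (log2, vertical axes) of 7 named genes in each migratory (left) and non-migratory (right) coastal bird, with mean and SD beside them; circles are males and triangles females. The October non-migratory bird (orange) lies inside the August range in ENSFALG00000001448 (27.39 log2) and below all August birds in ENSFALG00000009064 (25.83 log2) and ENSFALG00000005157 (29.53 log2).

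Most genes differed little between the states. The median size of the difference was 0.096 log2, and a difference above 1 log2 in size was found for 52 genes (22 higher in migratory birds, 30 lower). In 8619 genes (73.5%) the whole 95% interval was closer to 0 than 0.5 log2, and in 11091 genes (94.6%) closer than 1 log2. A difference of more than 2-fold was thus outside the interval of these 11091 genes in this fit, which holds no month term. With month of collection added, the interval was closer to 0 than 0.5 log2 in 6045 genes (51.55%) and than 1 log2 in 10229 genes (87.2%). Precision followed the level of the gene. With the genes ranked by mean value and cut into 4 groups of 2931 or 2932, the median interval reached 0.400 log2 to either side of the estimate in the lowest group and 0.169 log2 in the highest. The share of genes at an unadjusted p under 0.05 was 10.9%, 10.8%, 11.1% and 11.5% from the lowest to the highest group. ENSFALG00000009064 belonged to the lowest group.

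Of the 1299 genes, 695 (5.93% of those tested) were higher and 604 (5.15%) lower in migratory birds. Which direction held more genes depended on scaling: after a median of ratios shift there were 1273 such genes (10.9%), 614 higher and 659 lower. In 244 genes (2.08%) all migratory coastal birds lay on one side of all non-migratory coastal birds, 140 higher and 104 lower in migratory birds. This count is not adjusted for sex and takes no model. It must grow when a bird is left out, and it grew to between 281 and 806 genes. Growth by construction is larger when the group of 4 loses a bird than when the group of 6 does. Counts at unlike group sizes, the males among them, therefore cannot be set against each other. The count was 806 (6.87%) with the migratory female left out, 451 (3.85%) with the August non-migratory female left out and 443 (3.78%) with the October one left out. Leaving out each migratory male in turn gave 424 (3.62%), 395 (3.37%) and 417 (3.56%), and each non-migratory male 281 (2.4%), 333 (2.84%), 312 (2.66%) and 361 (3.08%). Without both October females it was 1089 (9.29%), and with the median of ratios shift 249 (2.12%). Among the 3 migratory and 4 non-migratory coastal males it was 1619 genes (13.8%), 896 higher and 723 lower in migratory males.

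With the October non-migratory bird left out, no gene passed the threshold in the fit of the other 18 birds (limma, smallest adjusted p = 0.122). With the inland birds left out as well, 2 genes passed, ENSFALG00000010663 (limma adjusted p = 0.012) and ENSFALG00000014270 (limma adjusted p = 0.023), which was named after its values were seen. At an unadjusted p under 0.05 there were then 1415 genes (12.1%), 776 higher (6.62%) and 639 lower (5.45%) in migratory birds. Of these, 1115 were also among the 1299 genes of the comparison with all coastal birds, which is 85.8% of the list with the bird and 78.8% of the list without it, and all had the same direction. Both fits use the same other 18 birds, so a large overlap with equal directions follows largely from the design. Of the 20 genes with the smallest p-values in each fit, 12 were shared. The median size of the difference was 0.101 log2 without the bird and 0.096 log2 with it. The count of 1415 was 905 (7.72%) when migratory coastal replicate 2 was left out as well.

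Without the October bird the smallest p-value belonged to ENSFALG00000005157. It stood at 29.95, 29.62, 29.32 and 29.17 log2 in the migratory coastal birds and at 30.18, 30.23, 30.38, 30.33 and 30.09 log2 in the August non-migratory birds. The October non-migratory bird had 29.53 log2, inside the migratory range. The difference was -0.71 ± 0.12 log2 without that bird (SE, limma adjusted p = 0.122) and -0.65 ± 0.13 log2 with it (SE, limma adjusted p = 0.177). ENSFALG00000010663 came next, at -1.27 ± 0.22 log2 without the bird (SE, limma adjusted p = 0.122).

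Among genes higher in migratory birds, ENSFALG00000006547 led without the October bird. It stood at 28.27, 29.11, 28.35 and 27.56 log2 in the migratory coastal birds and at 27.32, 27.69, 27.75, 27.68 and 26.99 log2 in the August non-migratory ones. The lowest migratory value was the female's, and it lay below 3 of the August birds, so the groups overlapped. The difference was 0.88 ± 0.17 log2 without the October bird (SE, limma adjusted p = 0.146) and 0.80 ± 0.18 log2 with it (SE, limma adjusted p = 0.189). ENSFALG00000003444, at a high level, had 33.15, 33.50, 33.18 and 32.91 log2 in the migratory coastal birds and at most 32.85 log2 in the August non-migratory ones. The October non-migratory bird had 32.99 log2, above the migratory female. The difference was 0.42 ± 0.08 log2 without the October bird (SE, limma adjusted p = 0.146) and 0.36 ± 0.09 log2 with it (SE, limma adjusted p = 0.213).

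In the 443 genes whose migratory and August non-migratory coastal birds did not overlap, a place was read for the October non-migratory bird, which had no part in choosing them. It lay within the migratory range in 161 genes (36.3%), beyond it in 38, between the ranges in 59, within the August range in 164 (37.0%) and past that range, away from the migratory birds, in 21. The same reading for the August non-migratory female put it within the migratory range in 137 of 451 genes (30.4%) and beyond it in 70. The non-migratory males lay within the migratory range in 30 of 281, 70 of 333, 54 of 312 and 99 of 361 genes, or 10.7% to 27.4%. Both non-migratory females thus had larger shares than any of the 4 males, whether collected in August or in October. These counts are not adjusted for sex, and each bird has its own list of genes.

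Females and males differed in many genes, as 449 genes passed limma's threshold for sex in the fit of all birds. The coastal males were therefore compared with no female in the fit. With the 3 females left out, the fit held 16 males, among them the 9 inland birds, which entered the estimate of spread. In it 1564 genes (13.3%) had an unadjusted p under 0.05 between the coastal males, and none passed the threshold (limma, smallest adjusted p = 0.086). All migratory coastal males were October birds and all non-migratory coastal males August birds, so status and month cannot be told apart in them. Each coastal male was then left out in turn, genes with an unadjusted p under 0.01 were chosen in the other males, and the bird was placed on a scale where the mean of the other non-migratory males is 0 and that of the other migratory males is 1. The lists held 433 (3.69%), 295 (2.52%) and 484 (4.13%) genes for the migratory males, and 409 (3.49%), 414 (3.53%), 538 (4.59%) and 506 (4.31%) for the non-migratory ones. Migratory males lay at median positions of 0.61, 0.71 and 0.56, and non-migratory males at 0.17, 0.19, 0.40 and 0.31. All 7 males lay on the side of their own status, between the means.

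The 3 females were placed in the same way on the 551 genes (4.70%) with an unadjusted p under 0.01 between coastal males in the fit of all males. None of them had a part in choosing these genes, and their values were not adjusted for sex. The migratory female lay at 0.31, the October non-migratory female at 0.26 and the August non-migratory female at 0.27. All 3 were thus closer to the non-migratory males, at positions close to each other. There was a lone migratory female, so no status or month difference among females can be read from these positions. The non-migratory mean is of 4 males and the migratory mean of 3, and a mean of more birds lies nearer by construction. Quartiles were wide, from -0.06 to 0.68 for the migratory female, -0.07 to 0.63 for the October and -0.15 to 0.65 for the August non-migratory female. The migratory female was nearer the migratory males in 215 genes (39.0%), the October non-migratory female in 180 (32.7%) and the August non-migratory female in 34.8%. At an unadjusted p under 0.001 (89 genes, 0.759%) the positions were 0.29 for the migratory, 0.33 for the October non-migratory and 0.27 for the August non-migratory female. At an unadjusted p under 0.05 (1564 genes, 13.3%) they were 0.37, 0.31 and 0.30 in the same order.

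**Figure D2:**
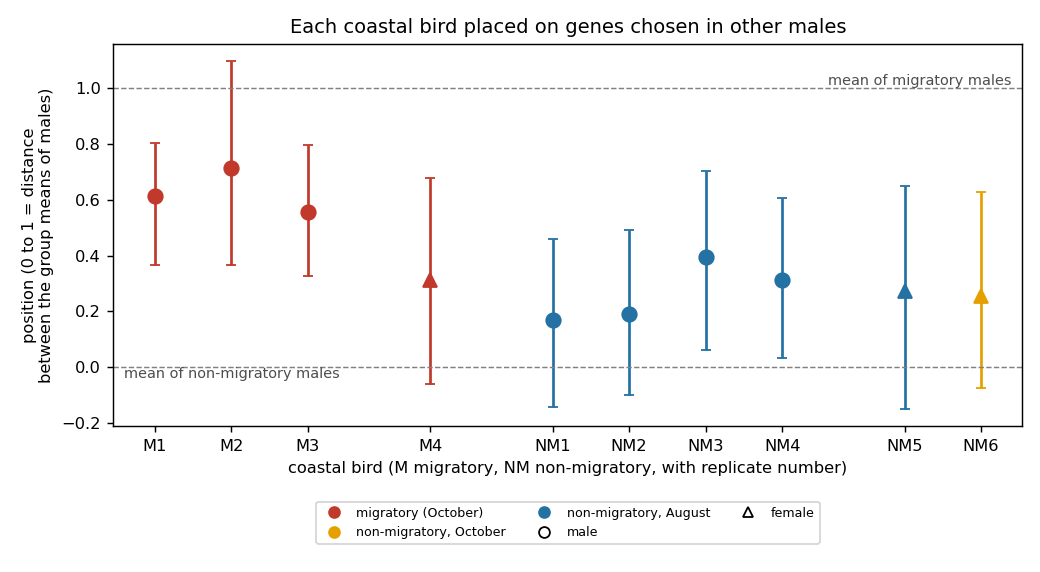
Median position over genes (bars, lower to upper quartile) of each coastal bird between the mean of non-migratory males (0) and of migratory males (1), with genes chosen in males other than the bird placed; circles are males and triangles females. Migratory males lie between 0.56 and 0.71 and non-migratory males between 0.17 and 0.40, and the 3 females lie between 0.26 and 0.31.

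In these 551 genes the migratory female and the mean of the non-migratory females differed in the same direction as the males in 305 genes (55.4%), against 6006 of all 11727 genes (51.2%). The female difference had a median of 0.06 of the male difference. Females and males share no birds here, but there is only 1 migratory female. With separate status differences for females and males in limma, which takes the lone migratory female to vary like the other birds, 338 genes (2.88%) had an unadjusted p under 0.05 in females. The difference between the sexes had 606 such genes (5.17%) and no gene past the threshold (limma, smallest adjusted p = 0.515). Such shares would be about 5% with no difference in any gene. With 1 migratory female, these counts say little on whether the status difference depends on sex.

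Positions read from fits with a sex term differed for the females. Each coastal bird was left out of the fit of all birds, genes with an unadjusted p under 0.01 were chosen, and its value was adjusted by the sex term of that fit. The lists held 300 (2.56%), 199 (1.7%), 295 (2.52%) and 544 (4.64%) genes for migratory replicates 1 to 4. For non-migratory replicates 1 to 6 they held 271 (2.31%), 311 (2.65%), 302 (2.58%), 375 (3.2%), 409 (3.49%) and 435 (3.71%). Positions were as follows. The migratory males lay at 0.64, 0.85 and 0.65 and the non-migratory males at 0.04, 0.21, 0.22 and 0.40. The migratory female lay at 0.08, with the non-migratory birds, the October non-migratory female at 0.60, with the migratory males, and the August non-migratory female at 0.47. The sex term of each such fit rests on the other 2 females. For the migratory female the position is thus again the female difference over the male difference, which had a median of 0.06 above. For each non-migratory female the sex term rests in part on the migratory female, so her values enter their positions. With no adjustment for sex and with genes of an unadjusted sex p under 0.05 left out, the positions were 0.23 for the migratory, 0.45 for the October non-migratory and 0.40 for the August non-migratory female. The side on which the October non-migratory bird fell thus depended on how sex was handled, while that of each male did not.

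Month and hour of collection were added to the model in turn. With month added, 617 genes (5.26%) had an unadjusted p under 0.05 and the smallest adjusted p was 0.904 (limma). This share was close to the 5% expected with no difference in any gene, while it was 11.1% without the month term. The median half-width of the 95% interval was 0.351 log2 with month, against 0.233 log2 without the month term. The median size of the difference was 0.124 log2 with month and 0.096 log2 without it. The lower share thus came with wider intervals and not with smaller differences over all genes. Status and month differ in 2 birds of the series, 1 of them coastal. The month term rests on these 2 birds, so status and month can hardly be told apart. The differences of the 7 named genes, which were chosen in these same birds, kept their sign. ENSFALG00000005157 moved most in proportion, to -0.32 ± 0.17 log2 (SE) with month, against -0.65 log2 without it, and ENSFALG00000006547 to 0.46 ± 0.25 log2 (SE), against 0.80 log2. ENSFALG00000010663 stood at -0.95 ± 0.31 log2 (SE) and ENSFALG00000014605 at 0.50 ± 0.17 log2 (SE). With the hour added the count was 1329 (11.3%), and ENSFALG00000010663 differed by -1.26 log2. The migratory birds held both the latest bird and an early one, so the groups overlapped in hour.

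**Figure D3:**
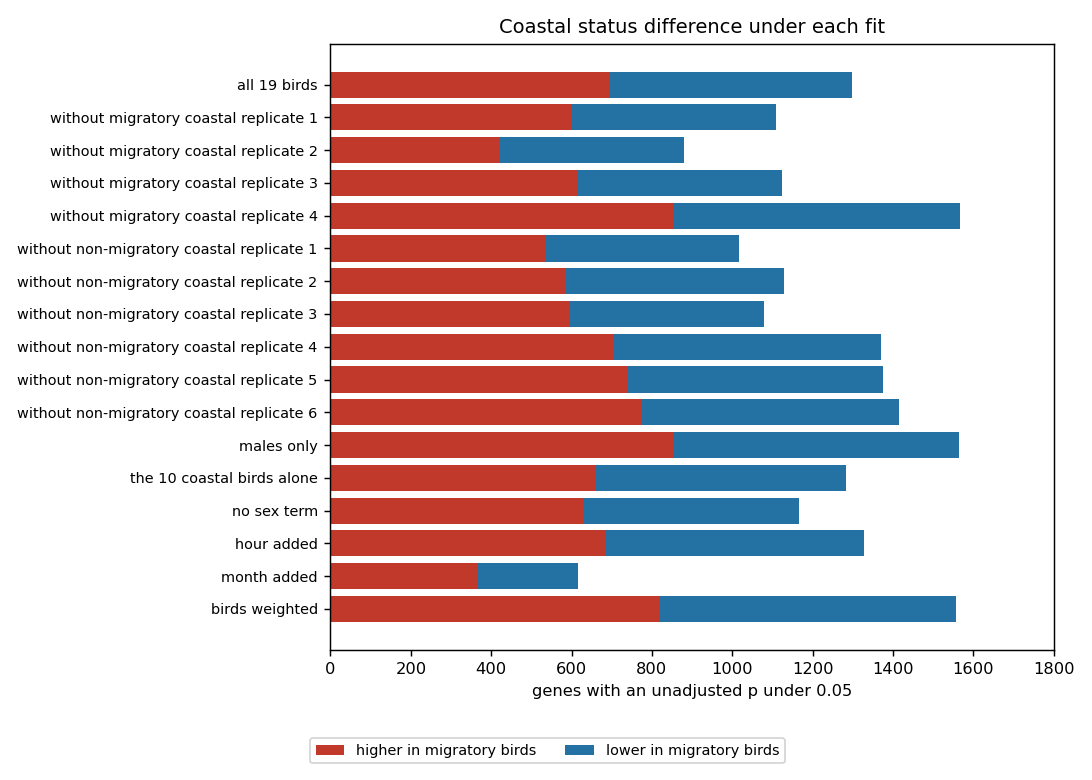
Number of genes with an unadjusted p under 0.05 (horizontal axis) in the coastal status comparison under each fit, split into genes higher (red) and lower (blue) in migratory birds. The count was 1299 (11.1% of genes) with all 19 birds, 879 (7.5%) with migratory male 2 left out, 1567 (13.4%) with the migratory female left out and 617 (5.26%) with month added.

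With single birds left out, the count of 1299 lay between 879 (7.5%) and 1567 (13.4%). The lowest count was without migratory coastal replicate 2 and the highest without the migratory female (replicate 4). Without replicate 4 both remaining coastal females are non-migratory and are taken up by the sex term, so the status difference is that of the males. Besides the fit with no inland birds, ENSFALG00000010663 passed the threshold without migratory inland replicate 3 (limma adjusted p = 0.043) or migratory inland replicate 4 (limma adjusted p = 0.030), and in the last of these ENSFALG00000001448 passed as well (limma adjusted p = 0.046). Leaving out an inland bird does not touch the coastal values, only the estimate of spread.

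The coastal birds were grouped by status only in part in their values as a whole, and this depended on the measure. Distance was taken as the SD, across genes, of one bird minus another. Its median was 0.40 log2 over 6 pairs of migratory birds, 0.43 log2 over 15 pairs of non-migratory birds and 0.41 log2 over 24 mixed pairs. With the sex effect removed the medians were 0.35, 0.38 and 0.39 log2. The nearest bird had the same status for 6 of the 10 birds. On the second principal component (16.8% of the variance) the migratory birds scored 5.49, 9.76, 11.5 and 9.43. The August non-migratory males scored -6.19, -28.3, -9.07 and -10.1, the August non-migratory female 2.53, and the October non-migratory female 15.0, the highest of all. The first component (22.5%) placed the 3 females at the low end, from -22.2 to -14.3, and migratory coastal replicate 2 at the high end (27.1). Signs of the components are set so that migratory birds score higher on average.

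**Figure D4:**
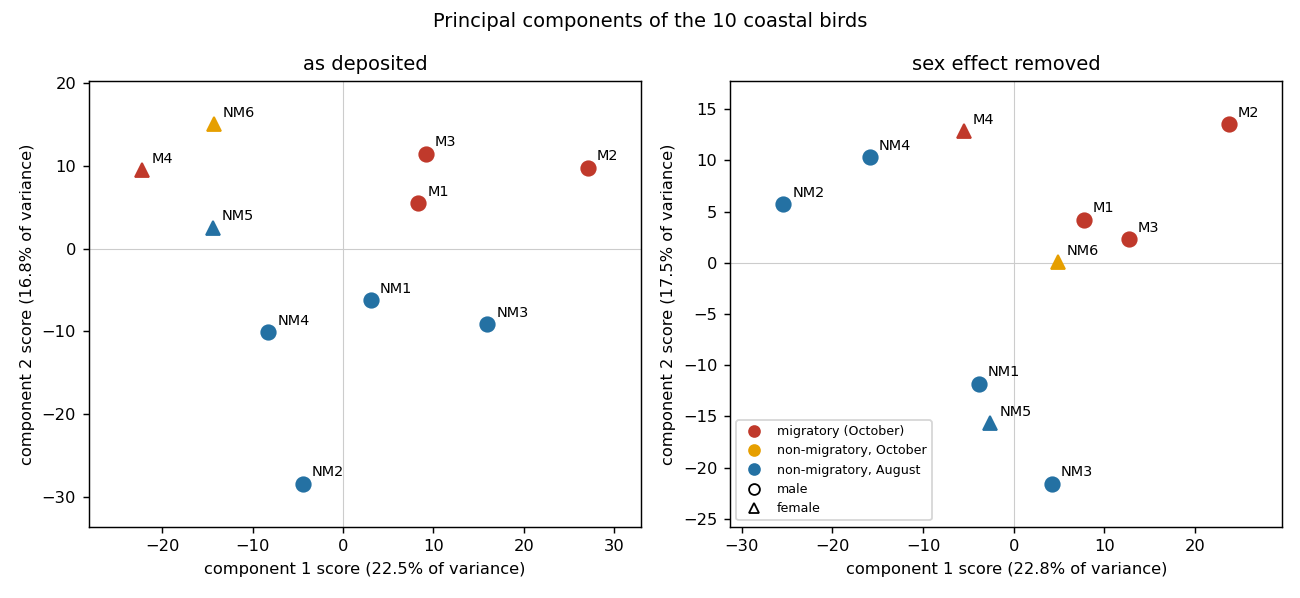
Scores of the 10 coastal birds on the first and second principal components, as deposited (left) and with the sex effect of the model removed (right); M marks migratory and NM non-migratory birds, with replicate numbers. As deposited, the 4 migratory birds and the October non-migratory bird (15.0) score above 5 on component 2, and the 4 August males lie below -6.

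Removing the sex effect changed this picture. The first component (22.8%) then had the migratory males at 7.76, 23.7 and 12.7 and the migratory female at -5.50. The October non-migratory bird scored 4.86 and the August birds -3.89, -25.4, 4.19, -15.9 and -2.58. The effect that was removed rests on the 3 females and was fitted together with status. The place of each female thus rests in part on her own values and label. Over all genes and with the sex effect removed, each of the 3 migratory males lay nearer to the mean of the other migratory birds, and each of the 6 non-migratory birds lay nearer to the mean of the other non-migratory birds. The means were of 3 or 4 migratory birds and of 5 or 6 non-migratory ones, and a mean of more birds lies nearer by construction. The October bird could not be placed by these distances, at 0.265 log2 from the migratory mean and 0.260 log2 from the mean of the other non-migratory birds. The migratory female was the exception, at 0.268 log2 from the mean of the other migratory birds and 0.247 log2 from that of the non-migratory ones.

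Genes varied about as much in both states. The median SD of a gene was 0.160 log2 in migratory birds (n = 4) and 0.171 log2 in non-migratory birds (n = 6), and the SD was larger in migratory birds for 5296 genes (45.2%). Without the October bird the medians were 0.160 and 0.165 log2. An SD over 1 log2 was found for 107 of the 11727 genes in migratory and 100 in non-migratory birds. These SDs are not adjusted for sex. Among males alone (n = 3 and n = 4) the medians were 0.136 and 0.147 log2, and such genes numbered 82 in migratory and 108 in non-migratory males.

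The coastal status difference was set against that of the inland birds (5 migratory and 4 non-migratory, all males), which share no bird with it. Both come from the same fit and share its estimate of spread for each gene, so their gene lists are not independent. Migratory inland replicate 1 was collected in August, like the non-migratory inland birds, and the other migratory inland birds in October. The difference between the coastal and the inland status effect passed the threshold in no gene (limma, smallest adjusted p = 0.306), with 1049 genes (8.95%) at an unadjusted p under 0.05, 579 (4.94%) with a higher and 470 (4.01%) with a lower effect in coastal birds. The inland comparison itself had 1 gene past the threshold (0.00853%) and 738 genes (6.29%) at an unadjusted p under 0.05, 325 (2.77%) higher and 413 (3.52%) lower in migratory birds. These counts depended on single birds: without non-migratory inland replicate 1 there were 10 genes past the threshold and 1244 (10.6%) at an unadjusted p under 0.05 (limma). Leaving out replicate 2 of the same group gave 0 and 732 genes (6.24%). The coastal minus inland effect had 1 gene past the threshold without non-migratory inland replicate 1 (limma), and 1433 genes (12.2%) at an unadjusted p under 0.05. The coastal and inland lists shared 98 genes, 7.54% of the coastal and 13.3% of the inland list, 54 of them with the same sign and 44 with opposite signs. Of the 1299 coastal genes, 669 (51.5%) had the same sign inland, against 48.5% of all genes.

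The leading coastal genes showed small differences in inland birds. ENSFALG00000010663 differed by -0.10 ± 0.22 log2 (SE) inland, and its coastal minus inland difference was -1.14 ± 0.30 log2 (SE, limma adjusted p = 0.441). ENSFALG00000009064 differed by -0.27 ± 0.49 log2 (SE) inland, where its migratory birds ranged from 25.98 to 27.30 log2 and its non-migratory birds from 26.30 to 27.09 log2. ENSFALG00000014605 differed by -0.09 ± 0.12 log2 (SE) and ENSFALG00000001448 by 0.11 ± 0.09 log2 (SE). None of these differences between the ecotypes passed the threshold, so the coastal values are not shown to be particular to coastal birds.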

How the data were processed

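Libraries were made with a TruSeq kit from total RNA, per the labels' protocols. Trim Galore 0.3.1, TopHat2 and HTSeq are named in the submitters' processing notes with no role given, while genome build and annotation were not given in the sources used here. One deposited table by the authors holds log2 values (the base of the log is not stated and is read as 2), made from exon counts of protein-coding genes with TMM normalization, as its name reads. The columns are nearly alike in distribution, so depth and differences in total RNA are lost, and counting error is unknown. Values of the same rank spanned a median of 0.0022 log2 between birds. The name of the table mentions TMM only, and whether a further step made the columns this alike is not known here. None of the 11727 identifiers matched the 19631 genes of the RefSeq table (bCatUst1.pri.v2), so planned gene lists and markers were not used.

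Groups were taken from the labels, and replicates numbered in accession order. Each bird is a separate animal, and replicate numbers pair no birds. The authors left 1 further migratory inland bird out, per the series' design text. The values were fitted as deposited, with no pseudocount, in limma 3.58.1 under R 4.3.3: a mean for each of 4 groups (status by ecotype) and a sex term, in all 19 birds (14 residual degrees of freedom), with variance moderated along the mean (trend and robust options), tested two-sided and called at an adjusted p under 0.05. The procedure was tested on simulated data. Named genes are those with the smallest p-values, 2 in each direction with and without the October non-migratory bird. A further rule, on the widest gap between groups, was not used because at most 2 identifiers a direction are named per comparison. The leaving out of single birds among males alone, the placing of females on genes chosen in males, separate status differences by sex and the count without both October females were added after seeing the data. The comparison, its rule and its tests were chosen with earlier results of these data known. Correlations, positions, components and distances are descriptions across genes, which are not independent replicates.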

Additional observations from a re-analysis of the deposited data

Results flagged for a closer look

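One value lay far from the other birds of its group, out of 24 groups of values tested (7 named genes, principal components and positions); chance gives such a value in about 1 of 20 groups. In ENSFALG00000005157, the October non-migratory bird (non-migratory coastal replicate 6) had 29.53 log2, below the 5 August non-migratory birds at 30.09 to 30.38 log2. This gene was named for its smallest p-value in the fit without that bird, a choice that favours genes whose August birds lie close together. The rate of 1 in 20 therefore does not hold for it. The migratory coastal birds ranged from 29.17 to 29.95 log2.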

How the results depend on the processing

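With the October bird in the fit, or left out as one of the single birds, the 7 named genes kept their direction, 198 times on the same side of the threshold and 4 times passing it (ENSFALG00000010663 in 3 and ENSFALG00000001448 in 1). Leaving out inland birds or low genes, or dropping the trend and robust options, cannot change a coastal difference, so its direction was fixed there. The other fits reuse most of the birds in which the genes were chosen. The tally is therefore no separate support for the directions. In the 10 coastal birds alone, 1 gene passed with all birds and 2 without the October bird, ENSFALG00000010663 and ENSFALG00000014270 (0.73 log2, named after its values were seen). Leaving out each bird in turn gave 0 to 2 called genes with the October bird and 0 to 1 without it (ENSFALG00000005157, without migratory coastal replicate 1). Genes at an unadjusted p under 0.05 numbered 879 to 1567 (7.5% to 13.4%) with the October bird and 905 to 1568 (7.72% to 13.4%) without it. Those without overlap numbered 281 to 806 (2.4% to 6.87%). For the coastal minus inland effect, leaving out single birds gave 0 to 1 called genes, the 1 being ENSFALG00000003848 without non-migratory inland replicate 1 (named after its values were seen). With month added, 617 genes (5.26%) had an unadjusted p under 0.05, and 788 (6.72%) without the October bird. Without that bird, month and status coincide in the coastal birds. The month term then rests on migratory inland replicate 1, an August bird, so the 788 genes are no month-adjusted comparison of coastal birds. Genes without overlap numbered 1619 (13.8%) in males and 1089 (9.29%) without both October females, an alternative chosen after seeing the data. Positions counted as moved were those of non-migratory coastal replicate 1 (0.26 at p under 0.001) and, on genes chosen in males, replicates 5 (0.27) and 6 (0.26). On those genes the migratory female lay at 0.31, against 0.08 in the fit with a sex term. This was not counted as a move, being smaller than the SD among migratory birds. That SD includes her own far position, while the migratory males lay at 0.64, 0.85 and 0.65, so her position is not shown to be stable. Of the alternative counts, 136 were taken as unchanged and 17 as moved. Counts of called genes, which were 0 in the main fits, were unchanged only if again 0. The other counts were unchanged if within 1.5 times the main one. The cause of these changes was not tested, except that fewer birds leave more genes without overlap by construction. Depth is unknown, so counting error in low genes cannot be told apart from spread between birds.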
